A study of Mus musculus with 8 samples.

Results

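The genes described here are 38 Hox genes of the mouse HoxA, HoxB, HoxC and HoxD clusters, out of 21851 protein-coding genes with an annotated start site. They were listed by name, and the rule uses no measured value. The regions described are the 4 windows that span the listed genes of each cluster plus 20 kb on either side. These windows held 238 of the 425777 peaks in 8 CUT&Tag peak lists. In CUT&Tag an antibody tethers a transposase to its target, so that DNA beside the target is tagged and sequenced. The windows, in mouse build mm10, are chr6:52142417-52280880 for HoxA, chr11:96174316-96388256 for HoxB, chr15:102901103-103056852 for HoxC and chr2:74648310-74785142 for HoxD.

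The lists come from mouse embryonic fibroblasts (MEFs) at day 5 of reprogramming. All cells received retroviral Oct4 and were kept in iCD3 induction medium. The NanogWT arm (labelled Nanog+Oct4) also received wild-type Nanog, and the NanogBiD arm (labelled NanogN70+Oct4) received Nanog fused to the part of SS18 that binds BRG1. That NanogN70 is NanogBiD was taken from the text of the study. In each arm 1 library was analysed per target: the FLAG tag on NANOG, BRG1 (the ATPase of the BAF remodelling complex), H3K27ac (a mark of active promoters and enhancers) and H3K4me1 (a mark of enhancers and of the flanks of promoters). Each list was called on merged replicates. The fibroblasts were primary cells from embryos of a cross with OG2 mice, which carry an Oct4-GFP reporter. With 1 merged library per group, no test between the arms was possible, and the values below are compared as measured.

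Hox genes encode homeodomain transcription factors that give cells along the body axis their regional identity. Within a cluster the genes lie in an order that matches the order of their expression from head to tail, with low paralog numbers (anterior) at one end and high numbers (posterior) at the other. In cells that do not express them, Hox clusters are classic targets of Polycomb repression. Fibroblasts are known to keep a Hox pattern that reflects where in the body they arose, and BRG1-containing complexes oppose Polycomb in several settings.

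The labelled cell type was checked at the promoters of marker genes, where a promoter was 2 kb either side of a start site. Of 10 fibroblast markers, 8 had an H3K27ac peak in each arm, led by Vim with summit heights of 49 tags in NanogWT and 50 in NanogBiD. Of 8 pluripotency markers, 0 had one in NanogWT and 1 in NanogBiD, namely Tdgf1 with a height of 20 tags. Among other cell types, H3K27ac peaks were found at 1 of 5 epithelial markers in NanogWT and 2 of 5 in NanogBiD, and at 1 and 3 of 4 blood and endothelial markers. The summit height is the number of tags piled up at the highest point of a peak. It was not scaled to the depth of the library, which is unknown. The lists held from 30859 peaks (BRG1 in NanogWT) to 74782 peaks (FLAG in NanogBiD).

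The Hox windows were rich in peaks of every target in both arms. FLAG peaks numbered 35 in NanogWT and 38 in NanogBiD, or 5.43 and 5.89 per 100 kb, against 2.16 and 2.74 per 100 kb over the genome. For BRG1 there were 16 and 20 peaks, or 2.48 and 3.1 per 100 kb against 1.13 and 1.97. For H3K27ac there were 21 and 30, or 3.26 and 4.65 against 1.3 and 1.56. For H3K4me1 there were 41 and 37, or 6.36 and 5.74 against 2.65 and 2.1. Within HoxB alone, BRG1 in NanogWT was below the genome, at 0.93 per 100 kb. The peaks lay near gene starts. Of the FLAG peaks, 60.0% in NanogWT (Wilson 95% interval 43.6 to 74.4) and 55.3% in NanogBiD (39.7 to 69.9) touched the promoter of a protein-coding gene, against 17.7% and 14.3% of all FLAG peaks. These intervals, like all those below, cover counting error only and not the spread between cultures. Hox peaks were also wider than others, with a median of 1648 bp for FLAG in NanogWT against 943 bp in the whole list. The windows are dense in gene starts, with 10 listed genes in the 138.5 kb of the HoxA window. The part of this density and of peak width in the promoter shares was not tested.

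**Figure D1:**
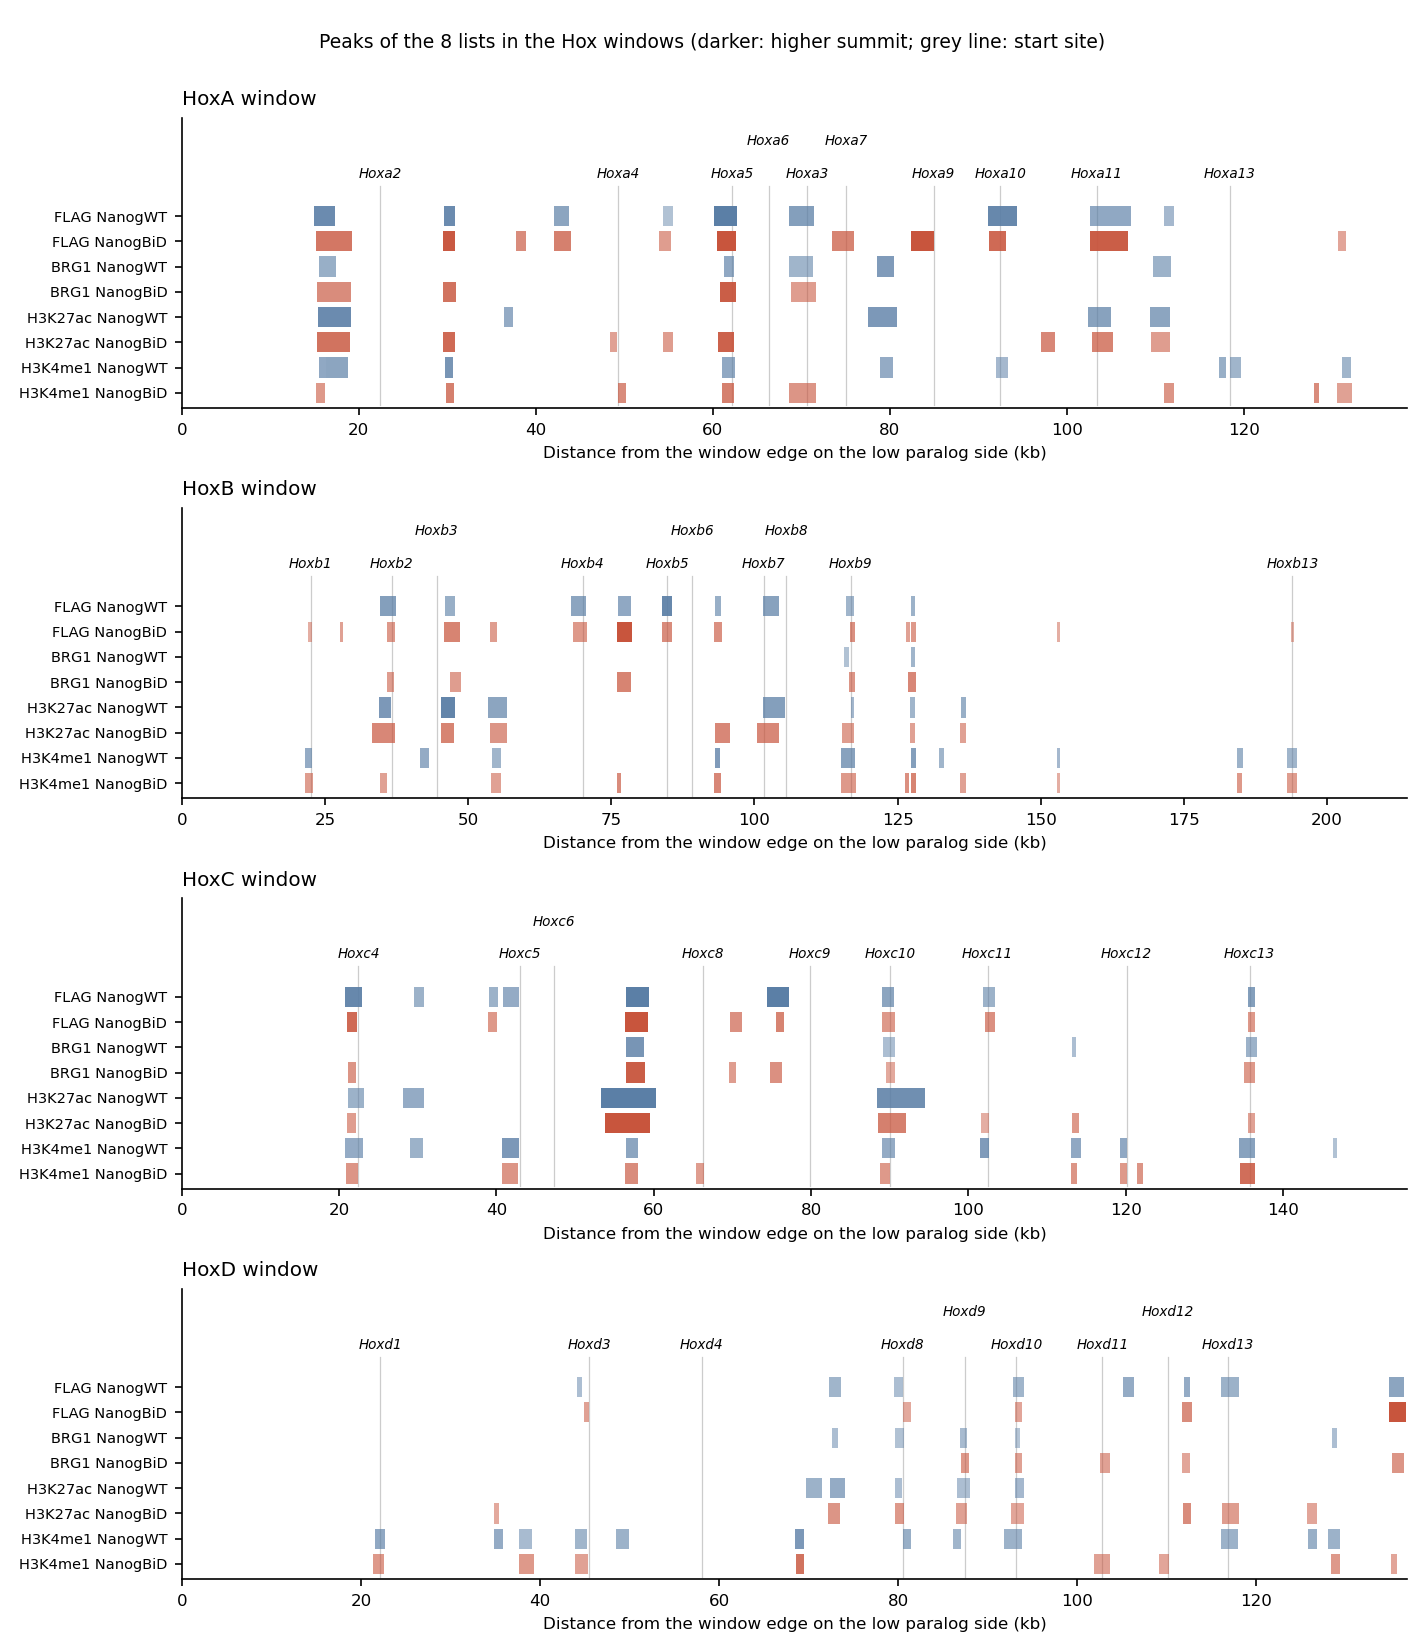
Peaks of the 8 lists along the 4 Hox windows, with distance in kb from the window edge on the side of the low paralog numbers on the x axis and one row per list (blue, NanogWT; red, NanogBiD; darker bars have higher summits). Grey lines mark the start sites of the listed genes, and most FLAG bars lie on or beside them.

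When the lists were merged, the 4 windows held 73 regions, of which 36 touched the promoter of a listed gene and 5 had a peak in all 8 lists. HoxB and HoxC held 2 of these 5 regions each, HoxA held 1 and HoxD none. In HoxB they were chr11:96260053-96262059, which lies in the gene Gm53 upstream of Hoxb9, and chr11:96270579-96273192 at the start of Hoxb9 itself. In HoxC they were chr15:102962404-102968447 at Hoxc10, which marks lumbar and hindlimb levels, and chr15:102996514-103003555, which holds the upstream end of Hoxc6 and lies away from the Hoxc6 start used here. The last of these had the highest H3K27ac summits of any Hox region, with 33 tags in NanogWT and 39 in NanogBiD. Its FLAG summits were 38 and 35 tags and its BRG1 summits 23 and 28 tags. The sequence 50 bases either side of the NanogBiD FLAG summit is given, 5′ to 3′ on the plus strand of GRCm38, for the pair of these regions that touch no promoter of the start sites used.

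upstream of Hoxb9, chr11:96260506-96260606: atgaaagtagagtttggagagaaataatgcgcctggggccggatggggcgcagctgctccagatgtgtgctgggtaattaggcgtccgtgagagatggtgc
upstream end of Hoxc6, chr15:102999339-102999439: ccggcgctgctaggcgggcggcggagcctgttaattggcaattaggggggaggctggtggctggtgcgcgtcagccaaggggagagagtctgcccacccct

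In the region upstream of Hoxb9 the FLAG summits of the arms lay on the same base (a distance of 0 bp), each with a height of 14 tags.

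At the promoters of the 38 genes, the targets separated at the cutoff of the lists themselves. FLAG peaks were found at 21 genes in NanogWT, or 55.3% (39.7 to 69.9), and at 20 in NanogBiD, or 52.6% (37.3 to 67.5). Among all protein-coding genes the shares were 49.8% and 50.9%. At this cutoff, FLAG occupancy of Hox promoters was thus close to that of promoters in general. FLAG promoter calls were not repeated at a higher threshold. In the Hox windows the median FLAG score, the caller's significance value, was 101.1 and 80.9, against 123.7 and 119.1 over the whole lists. BRG1 peaks were found at 8 genes in NanogWT, or 21.1% (11.1 to 36.3), and 11 in NanogBiD, or 28.9% (17.0 to 44.8), against 49.2% and 50% of all genes. Both intervals lie below the shares over all genes. FLAG and BRG1 peaks together were found at 7 genes in NanogWT and 8 in NanogBiD, or 18.4% and 21.1%, against 45% and 46.6% of all genes. No FLAG peak in either arm was called at 13 Hox promoters, or 34.2%, against 45.2% of all genes. For BRG1 this held for 26, or 68.4% (52.5 to 80.9), against 46.3%.

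H3K27ac showed the same kind of gap in NanogWT, with peaks at 11 Hox promoters, or 28.9% (17.0 to 44.8), against 52.5% of all genes. In NanogBiD 17 promoters had one, or 44.7% (30.1 to 60.3), against 55.2%, and that interval includes the share over all genes. H3K4me1 peaks were found at 19 promoters in NanogWT and 17 in NanogBiD, or 50% and 44.7%, against 57.1% and 56.4% of all genes. Neighbouring genes can share a peak, and the peak over Hoxb7 and Hoxb8 was counted for both genes in 3 lists (FLAG and H3K27ac in NanogWT, H3K27ac in NanogBiD). In a bulk sample, fewer cells with a mark and less of the mark per cell cannot be told apart.

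**Figure D2:**
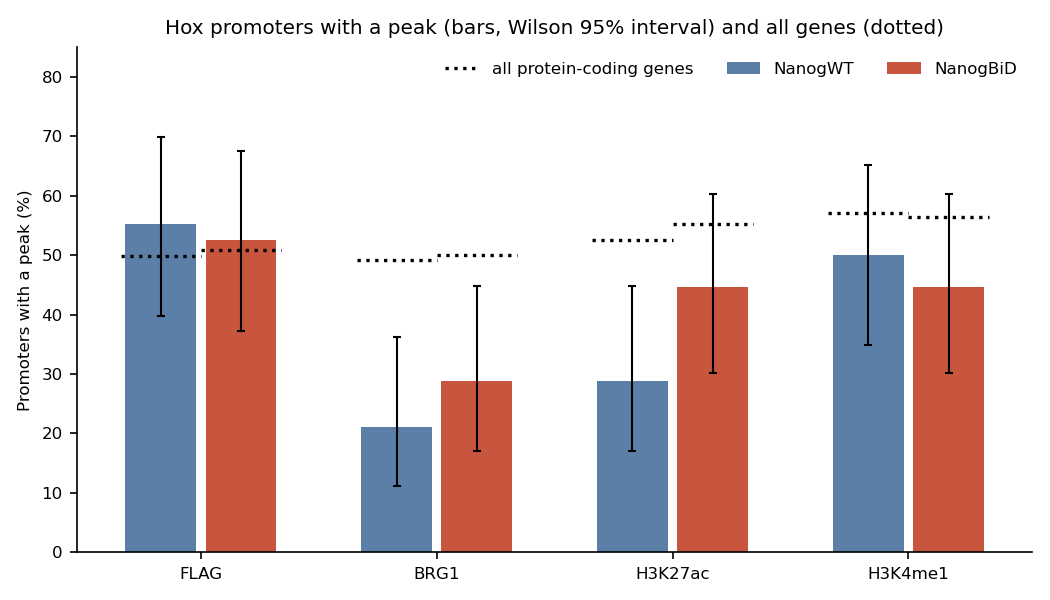
Percentage of the 38 Hox promoters with a peak (bars; error bars are Wilson 95% intervals) for each target and arm, with the percentage over all 21851 protein-coding genes as dotted lines. The BRG1 bars, 21.1% and 28.9%, and the NanogWT H3K27ac bar, 28.9%, stand below their dotted lines with intervals that do not reach them.

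BRG1 peaks were called at 7 Hox promoters in both arms, at 4 in NanogBiD only and at 1 in NanogWT only. Over all genes, 45.5% had a BRG1 peak in both arms, 4.51% in NanogBiD only and 3.75% in NanogWT only. The 4 genes correspond to 10.5% of the Hox genes (4.2 to 24.1), an interval that includes the 4.51%. These 4 were Hoxb2, a hindbrain gene with a height of 13 tags in NanogBiD, Hoxc4, a neck-level gene with 15 tags, and the limb genes Hoxd11 and Hoxd12, with 12 and 11 tags. At the start sites used, Hoxd8 alone had the reverse, with 9 tags in NanogWT and no peak in NanogBiD. With all protein-coding start sites of each gene counted, 3 genes had BRG1 in NanogWT only (Hoxa7, Hoxd3 and Hoxd8) against the same 4 in NanogBiD only. The median over all BRG1 peaks was 13 tags in each arm, so Hoxc4 lay above it, Hoxb2 at it and the other 3 genes below it. The genes in this class depended on the threshold. With a score of at least 100 they were Hoxa5, Hoxb9 and Hoxd9, none of the 4 above, and with a height of at least 15 tags they were Hoxb9 and Hoxc4. With the 20000 highest-scoring peaks, Hoxa5 was in NanogBiD only and Hoxd9 in NanogWT only, against 1.21% and 11.9% of all genes. The score is the peak caller's significance value, and the lowest score in the lists was 50.

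The 7 promoters with BRG1 in both arms were those of Hoxa3, Hoxa5, Hoxb9, Hoxc10, Hoxc13, Hoxd9 and Hoxd10. Hoxa5, a gene of lung and airway formation, had 17 tags in NanogWT and 28 in NanogBiD. At Hoxb9, which helps to pattern the rib cage, the values were 9 and 15 tags. NanogBiD was also the higher arm at Hoxd9, with 11 and 14 tags, and at Hoxd10, with 8 and 12. The values were equal at Hoxa3 (13 and 13), Hoxc10 (10 and 10) and Hoxc13 (14 and 14). BRG1 was thus higher in NanogBiD at 4 of the 7 genes, with equal values at the other 3. Over the genome the median log2 ratio of BRG1 height in shared regions, NanogBiD over NanogWT, was 0.14, so the median over all shared BRG1 regions lay in the same direction.

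H3K27ac peaks were called at 11 Hox promoters in both arms, at 6 in NanogBiD only and at 0 in NanogWT only. The shares over all genes were 51.1%, 4.11% and 1.43%. The 6 genes correspond to 15.8% of the Hox genes (7.4 to 30.4), which lies above the 4.11%, and 0 of 38 genes allows a share of up to 9.2% by the same interval. Hoxa5 had the highest of the 6 summits, with 27 tags. Hoxd12 had 17 tags, Hoxd13, a gene of digit formation, 13, and Hoxc13, a gene of hair and nail, 12. Hoxa4 had 12 tags and Hoxc11 had 9. The other summits than those at Hoxa5 and Hoxd12 lay below the median of 16 tags over all H3K27ac peaks of the NanogBiD list. Of the 6 genes, 4 belong to the posterior class (paralog groups 9 to 13, which has 16 of the 38 genes).

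The count of 6 genes depended on the threshold as well. With a height of at least 15 tags, 2 genes had an H3K27ac peak in NanogBiD only, Hoxa5 and Hoxd12. Their share has an interval of 1.5 to 17.3%, which includes the 4.1% of all genes. With a score of at least 100 there were 3, Hoxa5, Hoxb9 and Hoxc13, with an interval of 2.7 to 20.8% that includes the 3.68% of all genes, and 1 gene, Hoxc10, had a peak in NanogWT only. The share above that of all genes was thus not kept at either threshold. Hoxa5 was the only gene in this class under all 5 alternatives that were run.

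The highest promoter H3K27ac summit in each cluster was at Hoxa5 in HoxA, at Hoxb3 in HoxB with 28 tags in NanogWT and 19 in NanogBiD, at Hoxc10 in HoxC with 25 and 20 tags, and at Hoxd12 in HoxD. The 11 genes with H3K27ac in both arms included 5 of the 10 genes of HoxB (Hoxb2, Hoxb3, Hoxb7, Hoxb8 and Hoxb9). HoxD followed with 3 of 9 genes (Hoxd8, Hoxd9 and Hoxd10), HoxC had 2 of 9 (Hoxc4 and Hoxc10) and HoxA 1 of 10 (Hoxa11). Of the 6 genes with H3K27ac in NanogBiD only, HoxA, HoxC and HoxD each held 2. HoxB held none at this setting, but Hoxb9 (score of at least 100), Hoxb6 (all start sites) and, in NanogWT only, Hoxb8 (1 kb either side of the start) differed under others.

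**Figure D3:**
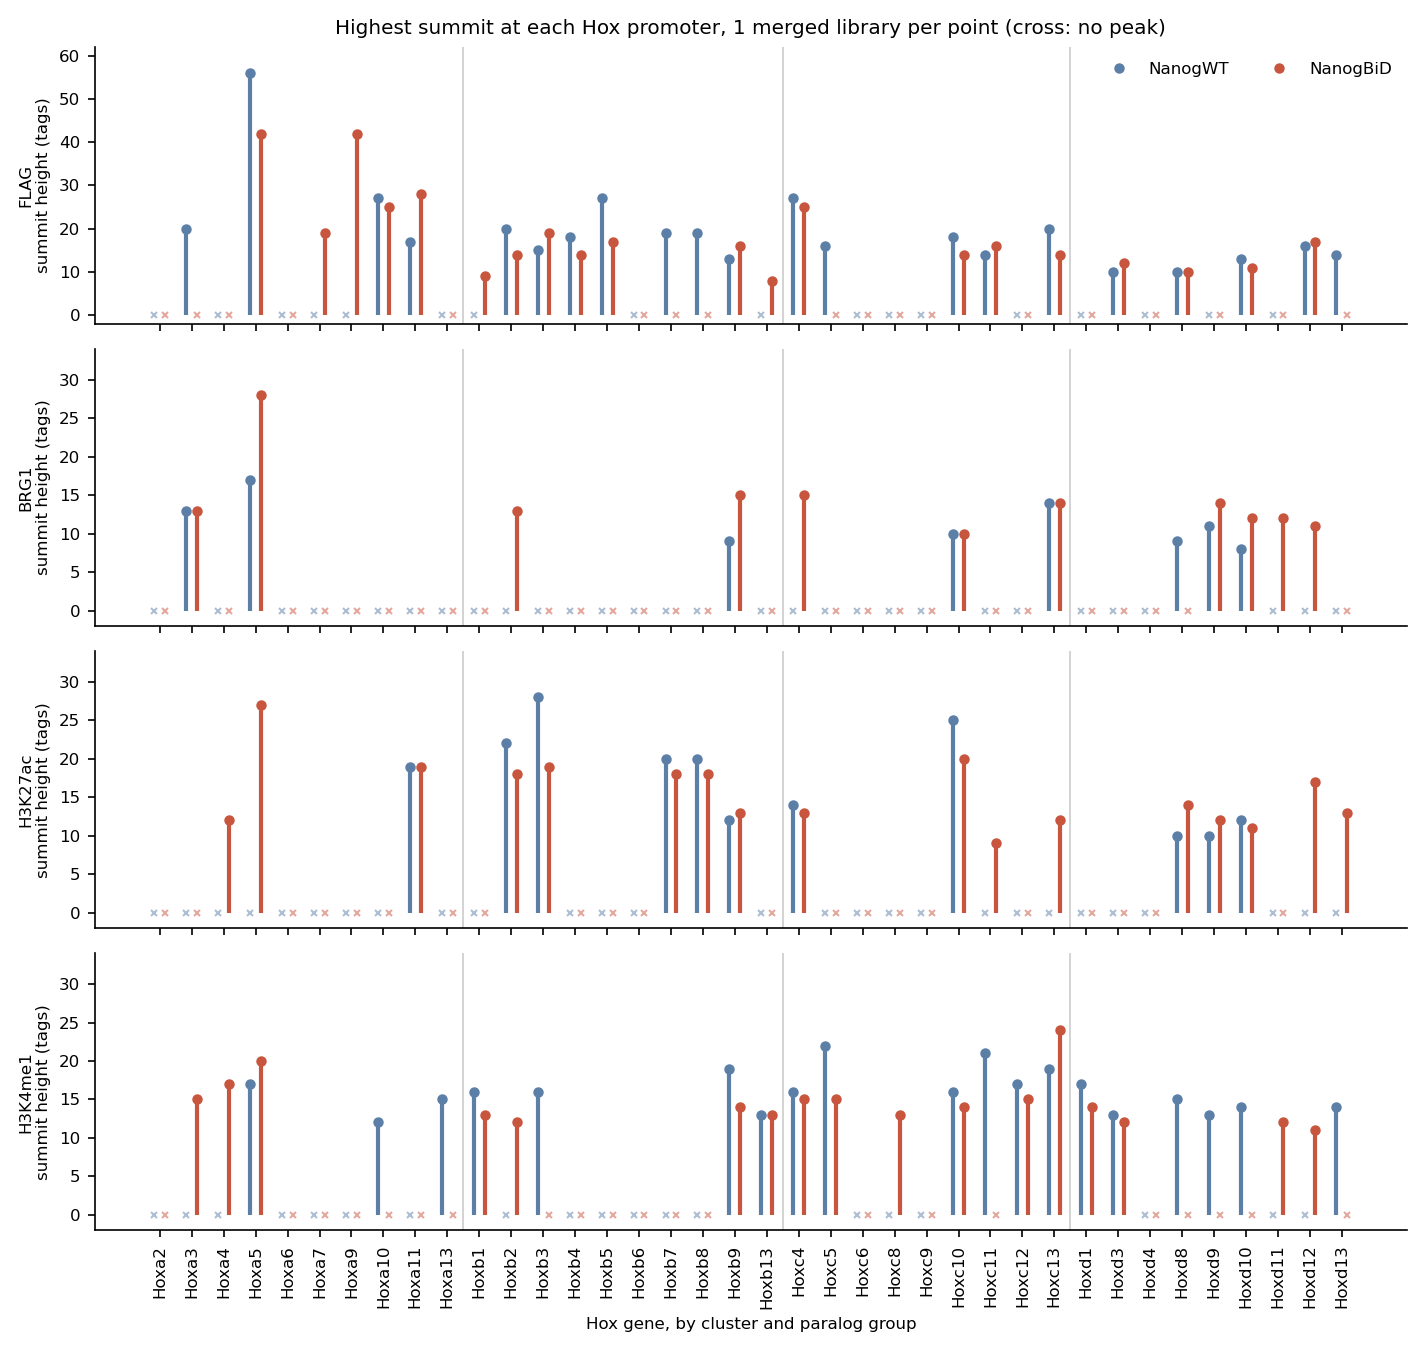
Height in tags of the highest summit at the promoter of each of the 38 genes (x axis, by cluster and paralog group) for the 4 targets, with NanogWT in blue, NanogBiD in red and crosses where no peak was called. Hoxa5 stands out with FLAG heights of 56 and 42 tags and with H3K27ac in NanogBiD only, and apart from 42 tags of FLAG at Hoxa9 the other heights lie between 8 and 28 tags.

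FLAG peaks were called at 16 Hox promoters in both arms, at 5 in NanogWT only and at 4 in NanogBiD only, where the shares over all genes were 45.9%, 3.88% and 4.99%. The Hox shares in a single arm were 13.2% (5.8 to 27.3) in NanogWT, above the share of all genes, and 10.5% (4.2 to 24.1) in NanogBiD, which includes it. Those in NanogWT only were Hoxa3 (20 tags), Hoxb7 and Hoxb8 (19 tags, a single peak), Hoxc5 (16 tags) and Hoxd13 (14 tags). Those in NanogBiD only were Hoxa9, a regulator of blood progenitors, with 42 tags, Hoxa7 with 19, Hoxb1, a hindbrain gene, with 9, and Hoxb13, a gene of prostate and tail, with 8. H3K4me1 peaks were called at 11 promoters in both arms, at 8 in NanogWT only and at 6 in NanogBiD only, against 51.5%, 5.55% and 4.86% of all genes. The Hox shares in a single arm were 21.1% (11.1 to 36.3) in NanogWT and 15.8% (7.4 to 30.4) in NanogBiD, both above those of all genes. The FLAG and H3K4me1 calls were not repeated at a higher threshold, where the H3K27ac share above that of all genes was not kept. More Hox promoters differed in call between the arms for H3K4me1 than for FLAG, BRG1 or H3K27ac. The 8 in NanogWT only were Hoxa10, Hoxa13, Hoxb3, Hoxc11, Hoxd8, Hoxd9, Hoxd10 and Hoxd13, and the 6 in NanogBiD only were Hoxa3, Hoxa4, Hoxb2, Hoxc8, Hoxd11 and Hoxd12.

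At the 1 start site used per gene, no peak of any list touched the promoters of Hoxa2, Hoxa6, Hoxb6, Hoxc6, Hoxc9 and Hoxd4. Hoxb6, Hoxc6 and Hoxd4 also have annotated transcripts that begin farther upstream, at or beside regions with peaks, so the absence of a call holds for the start used. These 6 genes are 15.8% of the Hox genes (7.4 to 30.4), against 32.1% of all genes. All 4 targets had a peak at 4 promoters in NanogWT (Hoxb9, Hoxc10, Hoxd8 and Hoxd10) and at 7 in NanogBiD (Hoxa5, Hoxb2, Hoxb9, Hoxc4, Hoxc10, Hoxc13 and Hoxd12). That is 10.5% and 18.4%, against 38.2% and 40.1% of all genes. By paralog class, BRG1 peaks in NanogBiD were at 7 of 16 posterior, 3 of 11 anterior (groups 1 to 4) and 1 of 11 central genes (groups 5 to 8). The corresponding counts in NanogWT were 5, 1 and 2. The shares over all genes were 50% and 49.2%, and no test was run between the classes. The start used for Hoxa3, which encodes a regulator of thymus and parathyroid formation, lies beside Hoxa6 and Hoxa7, so its promoter values belong to that site.

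The highest FLAG summits of the Hox windows were in HoxA. At the Hoxa5 start, chr6:52202529-52205124, FLAG reached 56 tags in NanogWT and 42 in NanogBiD. The first was the highest FLAG summit in NanogWT, and the second was equalled in NanogBiD by that at Hoxa9. The region had peaks in 7 of the 8 lists, the missing one being H3K27ac in NanogWT. Its H3K4me1 summits were 17 and 20 tags. The FLAG summits of the arms lay 50 bp apart, and both windows of 50 bases around them held the letters TAATGG, the core of sites bound by NANOG. The 30 bases around this match are given with the match in capitals. They lie in an untranslated part of a Hoxa5 exon.

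Hoxa5, chr6:52204555-52204584: aaactcgtgcacTAATGGgggagttgggtg

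Further along HoxA the arms differed in which target was called. At an upstream start of Hoxa7, on the side of Hoxa9, chr6:52219955-52223224 had peaks in NanogWT only, of BRG1 (21 tags), H3K27ac (22 tags) and H3K4me1 (16 tags), with no FLAG peak. On its flanks FLAG peaks were called in NanogBiD only, at the Hoxa7 start used here (chr6:52215899-52218385, 19 tags) and at Hoxa9 (chr6:52224826-52227420, 42 tags), with no peak of the other targets. In the body of Hoxa3, chr6:52171915-52173371 had FLAG in both arms (26 tags in NanogWT and 29 in NanogBiD) and H3K4me1 in both (23 and 20), while BRG1 (23 tags) and H3K27ac (25 tags) were called in NanogBiD only. At Hoxa11, a gene of the forearm and kidney, FLAG had 17 tags in NanogWT and 28 in NanogBiD, and H3K27ac had 19 in each.

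The height of 42 tags at Hoxa9 should be read with its score. In the same list, the Hoxa5 peak had the same height of 42 tags and a score of 321.67, whereas the Hoxa9 peak scored 68.68. Scores in the Hox windows were in general low for their height. Of the 238 Hox peaks, 183 (76.9%) scored below the median of all peaks with the same height in the same list, and 183 were wider than that median. The ratio of their scores to the same-height median was 0.62 for FLAG in NanogWT and 0.63 in NanogBiD at the median, and between 0.73 and 0.87 for the other 6 lists. No control library is named for the peak calling. The cause of the low scores was not tested. A promoter without a peak is one where no call was made, and its tags were not counted here.

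Peak numbers in the windows did not separate the arms beyond counting error. The ratio of NanogBiD over NanogWT was 1.09 for FLAG (exact binomial 95% interval 0.668 to 1.77), against 1.27 over the whole lists. For BRG1 it was 1.25 (0.615 to 2.58) against 1.74, and for H3K27ac 1.43 (0.791 to 2.63) against 1.20. For H3K4me1 it was 0.902 (0.563 to 1.44) against 0.791. Every interval includes both 1 and the ratio of the whole lists. By cluster, the FLAG ratio ran from 0.625 in HoxD to 1.56 in HoxB and the BRG1 ratio from 0.8 in HoxA to 2.50 in HoxB. Those for H3K27ac ran from 1.14 in HoxB to 1.6 in HoxA and HoxD, so that all 4 clusters had more H3K27ac peaks in NanogBiD, by 1 to 3 peaks each. At a height of at least 15 tags the H3K27ac numbers were 14 and 14.

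**Figure D4:**
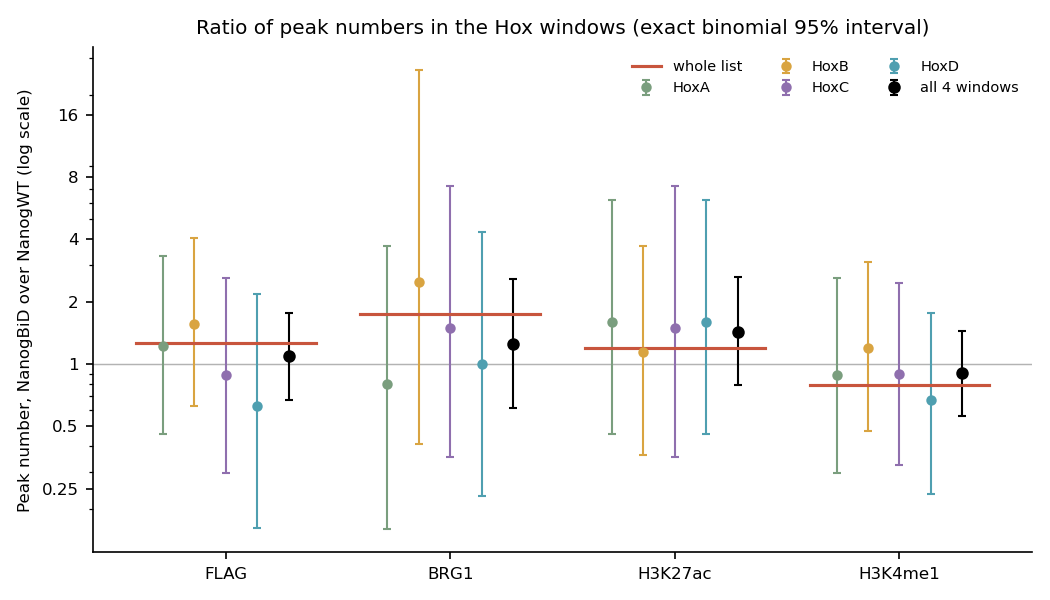
Ratio of peak numbers, NanogBiD over NanogWT, on a log axis for each cluster (coloured points) and all 4 windows (black points), with exact binomial 95% intervals, and for the whole lists (red lines). Every interval reaches the red line of its target, including that of BRG1 over all windows, 0.615 to 2.58 against 1.74.

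The share of Hox FLAG peaks that overlapped a BRG1 peak was below that of all FLAG peaks in both arms. In NanogWT 12 of 35 did, or 34.3% (20.8 to 50.8), against 44.1% of all FLAG peaks, and the interval includes that share. In NanogBiD 18 of 38 did, or 47.4% (32.5 to 62.7), against 64.7%, which lies just outside it. Both gaps depended on the threshold. With a height of at least 15 tags the NanogWT share was 13% (4.5 to 32.1) against 35.6%, outside its interval. The NanogBiD share was then 42.9% (24.5 to 63.5) against 49.6%, and with a score of at least 100 it was 50% (23.7 to 76.3) against 60.8%, so that both intervals included the share of all FLAG peaks. With the 20000 highest-scoring peaks, 3 of 3 overlapped, against 77.5%. Looked at from BRG1, 12 of 16 Hox peaks in NanogWT and 17 of 20 in NanogBiD overlapped FLAG, or 75.0% and 85%, against 84.4% and 90.5% of all BRG1 peaks.

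Merging the FLAG and BRG1 lists of both arms gave 51 Hox regions. FLAG was called in both arms in 26 of them. Of these 26 regions, 8 had BRG1 in both arms, 8 in NanogBiD only, 1 in NanogWT only and 9 in neither. The 8 regions with FLAG in both arms and BRG1 in NanogBiD only made up 15.7% of the Hox regions, close to the 15.2% of the 93352 regions of the genome. The 9 regions with FLAG in both arms and no BRG1 made up 17.6%, against 7.22% of the genome. In NanogBiD only, FLAG and BRG1 were called together in 1 Hox region (2.0%), against 11.1% of the genome. In NanogWT only there were 2 such regions, or 3.9% against 1.55%.

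The 3 regions with both proteins in a single arm had heights of 10 to 16 tags. The region in NanogBiD only, chr15:102985636-102987348, lies upstream of Hoxc8, a gene of the brachial spinal cord, in an intron of a long Hoxc5 transcript, and had 16 tags of FLAG and 13 of BRG1 with scores of 63.0 and 50.6. Neither histone mark was called there in either arm. Of the regions in NanogWT only, chr6:52252211-52254601 lies between Hoxa11 and Hoxa13, outside annotated genes, with 12 tags of FLAG and 14 of BRG1. H3K27ac was called there in both arms, with 18 and 13 tags. The other, chr2:74711501-74712845, lies in the Hoxd3 and Hoxd4 transcription units and in the antisense gene Hoxd3os1, with 13 tags of FLAG and 10 of BRG1, and H3K27ac of 16 and 15 tags in both arms. The sequences 50 bases either side of their FLAG summits are given on the plus strand of GRCm38, since they carry the calls that were limited to an arm.

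NanogBiD only, chr15:102986326-102986426: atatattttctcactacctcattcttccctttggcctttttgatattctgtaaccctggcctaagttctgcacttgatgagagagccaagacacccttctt
NanogWT only, chr6:52254319-52254419: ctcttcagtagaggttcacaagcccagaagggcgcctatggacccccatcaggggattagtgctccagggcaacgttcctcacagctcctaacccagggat
NanogWT only, chr2:74712393-74712493: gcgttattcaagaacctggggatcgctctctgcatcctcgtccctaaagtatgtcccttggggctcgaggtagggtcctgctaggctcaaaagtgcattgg

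The 8 regions where FLAG was called in both arms and BRG1 in NanogBiD only were spread over the clusters. By BRG1 score they were led by chr2:74648438-74650345 at the edge of the HoxD window, beyond Hoxd13, with 15 tags of BRG1, a score of 143.66, and FLAG of 18 tags in NanogWT and 32 in NanogBiD. The next was the region in the body of Hoxa3 described above. They also included the promoters of Hoxc4, Hoxb2, Hoxb3 and Hoxd12. At Hoxb3 the BRG1 peak itself did not reach the promoter. Between Hoxb5 and Hoxb4, chr11:96309668-96312238 had FLAG of 17 and 31 tags and BRG1 of 19 tags in NanogBiD. The last of the 8, chr15:102979624-102982407 within Hoxc9, had FLAG of 31 and 19 tags and BRG1 of 16 tags. FLAG height was thus higher in NanogBiD in some of these regions and lower in others.

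The FLAG summits between Hoxb5 and Hoxb4 lay 2 bp apart in the arms. The sequences around the NanogBiD FLAG summits are given for this region and for the region upstream of Hoxd12, both outside annotated genes. The capitals in the second mark a match to CTTTGT, the reverse complement of the SOX letters ACAAAG.

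between Hoxb5 and Hoxb4, chr11:96310680-96310780: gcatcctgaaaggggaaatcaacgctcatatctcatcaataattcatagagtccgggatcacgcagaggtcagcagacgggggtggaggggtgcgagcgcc
upstream of Hoxd12, chr2:74672690-74672790: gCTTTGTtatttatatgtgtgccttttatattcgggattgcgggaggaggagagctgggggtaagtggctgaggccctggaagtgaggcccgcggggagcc

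Few Hox FLAG summits held the motif letters searched, and for every motif the interval of the Hox share included the share over all windows. Windows of 50 bases either side of the summit were searched on both strands for ATGCAAAT (the OCT octamer), TAATGG (NANOG core), ACAAAG and ACAATG (SOX), TGACTCA and TGAGTCA (AP-1), TGATTNAT (HOX with PBX) and TTAATTA (homeobox). The octamer was in 0 of 35 Hox windows in NanogWT and 0 of 38 in NanogBiD, where it was in 1.81% and 2.49% of all FLAG windows. The intervals of these zero counts reach 9.9% and 9.2%, so a difference was not detectable with so few windows. The SOX letters were in 2 of 35 and 3 of 38 Hox windows, against 14.9% and 16.7% of all windows. The NANOG core was in 1 and 2 windows, against 4.99% and 7.32%, and the AP-1 letters in 0 and 1, against 5.82% and 7.68%. HOX with PBX was in 0 and 1 windows, against 2.24% and 2.87%, and the homeobox letters in 1 and 0, against 1.4% and 2.60%. The Hox windows were richer in G and C, with a median of 55.4% in NanogWT and 55.0% in NanogBiD against 45.5% and 43.6% of all windows. Their median number of CG pairs was 6 and 4 against 1 and 1. The part of base composition in these shares was not tested.

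The single AP-1 match lay at the NanogBiD FLAG summit upstream of Hoxa11, which had 28 tags. The NanogWT summit of the same region, with 17 tags, lay 1401 bp away, so it gives no NanogWT height at the match. The NanogBiD window, with the match in capitals, lies in the antisense transcription unit Hoxa11os.

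upstream of Hoxa11, chr6:52247468-52247568: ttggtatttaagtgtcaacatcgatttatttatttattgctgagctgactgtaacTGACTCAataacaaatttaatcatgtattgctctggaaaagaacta

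In regions with a peak in both arms, heights lay mostly within the range seen over the genome. The median log2 ratio of height, NanogBiD over NanogWT, was 0.00 for FLAG over 26 regions, 0.32 for BRG1 over 10, -0.13 for H3K27ac over 17 and -0.12 for H3K4me1 over 24. Over the genome the medians were 0.15, 0.14, 0.08 and -0.18. Of the 10 BRG1 regions, 7 were higher in NanogBiD, 0 lower and 3 equal, whereas of the 17 H3K27ac regions 4 were higher and 12 lower. Over the genome 14230 shared BRG1 regions were higher in NanogBiD and 8319 lower, and 15263 shared H3K27ac regions were higher and 10121 lower. Thus H3K27ac was called in more Hox regions in NanogBiD but was lower at most of those called in both arms. Of the 77 shared regions of the 4 targets, 1 (H3K27ac) lay outside the 5th to 95th percentile of its target over the genome.

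Among shared regions with a summit of at least 15 tags in 1 arm, the 3 log2 ratios farthest from the genome median of each target are given as differences from that median. For FLAG they were -0.86 at chr15:102979624-102982407 within Hoxc9 (31 and 19 tags), -0.82 at the promoter of Hoxb5, a gene of the enteric nervous system (27 and 17 tags), and 0.71 between Hoxb5 and Hoxb4 (17 and 31 tags). For BRG1 they were 0.60 at Hoxb9 (9 and 15 tags), 0.58 at Hoxa5 (17 and 28 tags) and 0.33 upstream of Hoxb9 (13 and 18 tags). For H3K27ac they were -0.64 at Hoxb3 (28 and 19 tags), -0.55 between Hoxa11 and Hoxa13 (18 and 13 tags) and -0.40 at chr11:96251281-96252415, farther upstream of Hoxb9 (15 and 12 tags), which tied with Hoxc10 (25 and 20 tags). For H3K4me1 they were 0.52 at Hoxc13 (19 and 24 tags), 0.42 at Hoxa5 (17 and 20 tags) and -0.37 at Hoxc5 (22 and 15 tags). Among lower summits, BRG1 at Hoxd10 (8 and 12 tags) differed by 0.45 and H3K4me1 at chr2:74745810-74747501 in Hoxd3 (11 and 14 tags) by 0.53.

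The position of the summits was less alike for H3K27ac. Between the arms, FLAG summits of shared Hox regions lay a median of 85.5 bp apart, against 76.0 bp over the genome. The medians were 141 and 97.0 bp for BRG1 and 171 and 110 bp for H3K4me1. For H3K27ac they were 303 and 114 bp, and 2 of 17 Hox summits lay within 100 bp of each other, or 11.8%, against 46.5% over the genome. Hox H3K27ac peaks were also wider, with medians of 2183 bp in NanogWT and 1410 bp in NanogBiD, against 1249 and 1159 bp. The part of peak width in these distances was not tested.

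**Figure D5:**
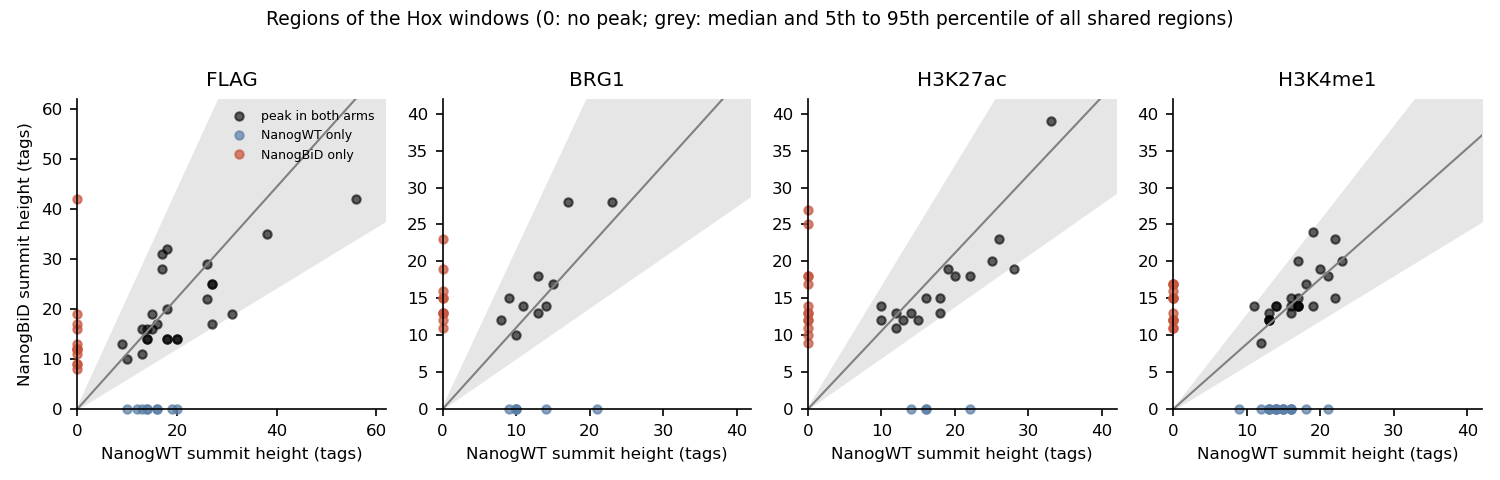
Summit height in tags in NanogWT (x axis) and NanogBiD (y axis) for each region of the Hox windows and each target, with regions called in 1 arm on the axes. The grey line and band are the median and the 5th to 95th percentile of the height ratio over all shared regions of the genome, and 1 Hox point (H3K27ac) lies outside its band.

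Some regions called in 1 arm were well above the lowest summits. Of the 10 BRG1 regions in NanogBiD only, 5 reached 15 tags, or 50% (23.7 to 76.3), against 22.3% of such regions over the genome. The same was true of 1 of 6 in NanogWT only, against 9.0%. For FLAG it was 4 of 12 in NanogBiD only, or 33.3% against 32.9%, and 4 of 9 in NanogWT only, against 17.9%. For H3K4me1 it was 7 of 13 in NanogBiD only, against 19.2%, and 8 of 17 in NanogWT only, against 35.1%. For H3K27ac it was 5 of 13 in NanogBiD only, against 23.9%, and 3 of 4 in NanogWT only, against 21.3%. The 3 were chr6:52178861-52179854 in Hoxa3 (16 tags), chr6:52219955-52223224 at the upstream Hoxa7 start (22 tags) and chr15:103026065-103028700 in the Hoxc4 transcription unit (16 tags).

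Genes that work with or lie beside the Hox genes carried peaks as follows. Of 9 genes for cofactors of the PBX, MEIS and PKNOX families, which bind DNA together with HOX proteins, 7 had a BRG1 peak at the promoter in NanogWT and 9 in NanogBiD. FLAG gave the same counts. The 2 that had both in NanogBiD only were Pbx2 (19 tags of FLAG and 17 of BRG1) and Pknox1 (23 and 11 tags). H3K27ac ran the other way, at 9 in NanogWT and 7 in NanogBiD, with Meis2 (31 tags) and Pknox1 (14 tags) called in NanogWT only. Of 14 genes beside the clusters, 6 had BRG1 in NanogWT and 9 in NanogBiD, or 42.9% and 64.3%, against 49.2% and 50% of all genes. H3K27ac was called at 8 and 9 of them, or 57.1% and 64.3%, against 52.5% and 55.2%. Evx1 and Evx2, homeobox genes at the posterior ends of HoxA and HoxD, had no FLAG or BRG1 peak at the promoter in either arm.

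Of 62 other developmental regulators of the homeobox and PAX families, 26 had a BRG1 peak in NanogWT and 22 in NanogBiD, or 41.9% and 35.5%. The Hox intervals were 11.1 to 36.3 and 17.0 to 44.8%, and the second includes the 35.5%. FLAG peaks were at 24 and 18, or 38.7% and 29%, with 8 in NanogWT only and 2 in NanogBiD only. For H3K27ac the counts were 17 and 22, or 27.4% and 35.5%, and for H3K4me1 49 and 43, or 79.0% and 69.4%. BRG1 was called in NanogBiD only at 3 and in NanogWT only at 7, and H3K27ac in NanogBiD only at 7 and in NanogWT only at 2. Among noncoding genes of the clusters, and at Halr1 outside the HoxA window, no peak of any list touched the starts of Hotair, Hoxaas2, Hoxb5os, Mir10b, Mir196a-1, Mir196a-2 or Mir196b. Mir10a, whose start lies near that of Hoxb4, had the FLAG peaks of Hoxb4, with 18 and 14 tags. The 2 kb around the start of Hoxaas3 was reached by the FLAG, BRG1 and H3K27ac peaks in the body of Hoxa3 described above, but not by the H3K4me1 peaks there. The 2 kb around the start of Hoxb3os was reached by peaks at Hoxb2. These were FLAG in NanogWT (20 tags), H3K27ac in both arms (22 and 18) and H3K4me1 in NanogBiD (12). The NanogBiD FLAG and BRG1 peaks at Hoxb2 did not reach it. Hoxd3os1 had H3K27ac of 14 tags in NanogWT only and H3K4me1 of 22 and 23 tags. At Hottip, beyond Hoxa13, the only peak was H3K4me1 in NanogWT with 13 tags.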

How the data were processed

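CUT&Tag peak lists of 8 groups (4 targets in 2 arms, 1 merged library each) were analysed. Per the labels and the methods, the authors trimmed reads with Trim Galore 0.6.4, aligned them to mm10 with Bowtie2 2.4.5, filtered them with SAMtools 1.16.1, merged replicates and called peaks with MACS 1.4.2, keeping 1 read per position. The labels and the methods name different library kits and cell inputs. The deposited lists give a score per peak (the caller's significance value, lowest 50) and the signal at the summit (tag pileup). Neither is scaled to depth, which is unknown, so a deeper library can yield more and higher peaks.

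From these lists, peaks in the 4 windows and at promoters were counted with Python 3.11.15, pandas 2.3.3, NumPy 2.4.6 and SciPy 1.17.1. Start sites came from GENCODE M21, using the protein-coding transcript of shortest span among those tagged basic, and principal where any was. Overlap meant at least 1 bp. Intervals are 95% Wilson intervals for shares and exact binomial intervals for ratios. They cover counting error over genes or peaks only, since 1 merged library per group gives no spread between cultures. They treat genes and peaks as independent, although neighbouring Hox genes can share a peak. Tag heights have the further limit that reads without molecular identifiers are not independent molecules. Sequences are from the RefSeq copy of GRCm38.

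Genes named are those whose BRG1 or H3K27ac promoter call differed between arms and the highest H3K27ac promoter of each cluster. Regions named are those with FLAG and BRG1 in a single arm, with FLAG in both arms and BRG1 in one, and the 3 shared regions per target with the height ratio farthest from the genome median among those of at least 15 tags in 1 arm. Other genes and regions were picked after their values were seen. The members and lists were chosen with earlier results of these data known. Counting steps were tested on simulated data. The alternatives were a higher score or height, the 20000 highest-scoring peaks, other flanks, promoter widths, start sites and overlaps, and merged gaps. Some genes and regions are not reported here.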

Additional observations from a re-analysis of the deposited data

How the results depend on the processing

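No paired analysis was possible because merged libraries carry no replicate numbers. Of 44 alternative values for 8 results, 34 stayed within the counting interval or within 1.5 times the count and 10 moved beyond it. No ratio had an interval that left out 1, and several crossed it. FLAG went from 1.09 to 0.556, 0.75 and 0.913 (score, 20000 peaks, height), H3K27ac from 1.43 to 0.8 and H3K4me1 from 0.902 to 1.12 (both 20000 peaks). With a score of at least 100, the ratio of peak numbers in the Hox windows was 0.556 for FLAG (10 against 18 peaks) and 2.67 for BRG1 (8 against 3), the share of NanogWT FLAG peaks with BRG1 was 16.7%, and 3 genes had promoter H3K27ac in NanogBiD only. With a height of at least 15 tags that share was 13% against 35.6% of all FLAG peaks, and 2 genes had BRG1 and 2 had H3K27ac in NanogBiD only. With the 20000 highest-scoring peaks, the share of NanogBiD FLAG peaks with BRG1 was 100% (3 of 3), and 1 gene had BRG1 and 2 had H3K27ac in NanogBiD only. The causes were not tested, but each of these settings leaves fewer peaks. Over the alternatives the ratio ran from 0.556 to 1.25 for FLAG, 1.2 to 2.67 for BRG1, 0.8 to 1.43 for H3K27ac and 0.643 to 1.12 for H3K4me1. In 24 of 24 of them the interval held the ratio of the whole lists. The unknown depth and the 1 library per group limit every comparison between the arms.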
